A study of Mus musculus with 24 samples.

Results

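The cytosolic ribosomal protein genes were followed in RNA-seq of CJ9 mouse embryonic stem cells and of a line in which Setd3, which encodes a protein methyltransferase, had been knocked out with CRISPR-Cas9. Genes were taken by name: Rpl or Rps followed by a number and at most the endings a, x, y or l (with a further number allowed), together with Rplp0, Rplp1, Rplp2 and Rpsa. Names ending in -ps and the Rps6k kinases were left out. Of 55401 entries in the count table, 89 had such a name, and the 78 with at least 1000 counts summed over all libraries are described. They comprise 39 genes of the large subunit, 29 of the small subunit, the 3 stalk genes and 7 copies of other ribosomal protein genes. Among the copies, Rpl6l and Rps3a2 are annotated as processed pseudogenes. The wild-type and the knock-out line were each sampled on day 0, when the cells had grown with LIF on inactivated mouse embryonic fibroblasts, on day 2, after separation from the fibroblasts and 2 days in serum-free differentiation medium, and on days 3 and 4, after passage at day 2 into that medium with Activin A. Each of the 8 groups had 3 libraries of polyadenylated RNA. The knock-out is 1 line and nothing in the labels says that replicates were separate cultures, so p-values measure the spread between these libraries, which may be technical, and an effect of losing Setd3 cannot be told apart from other differences between the 2 lines. A ± after a mean is the SD over 3 libraries, a ± after a log2 fold change is its standard error, and a gene was called where the adjusted p was below 0.05. Fewer cells of a type and less RNA per cell cannot be told apart in these bulk samples.

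The ribosome joins a small subunit, which reads the messenger RNA, and a large subunit, which forms the peptide bond and carries a flexible stalk of Rplp0, Rplp1 and Rplp2 that recruits elongation factors. Each ribosome holds a copy of nearly every ribosomal protein, and the genes are known as highly expressed housekeeping genes whose messenger RNAs carry a pyrimidine tract at the 5′ end and are translated under control of mTORC1. A few have duplicated copies with restricted expression. Rpl10l and Rpl39l, autosomal copies of the X-linked Rpl10 and Rpl39, are best known from male germ cells, in which the X chromosome is silenced during meiosis. Rpl22l1 and Rps27l are copies of Rpl22 and Rps27 expressed in many tissues.

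The counts limit which ribosomal proteins can be seen. Of the 11 names below 1000 counts, Rpl35, Rps4l, Rps12l1, Rpl13, Rpl32l, Rps3a3 and Rpl35a had 0 counts in every library, Rpl24 had 1, Rps10 had 70 and Rpl3l had 302, while the lowest genes above the limit were Rpl29 with 2781 and Rpl39l with 5068. In the GENCODE M21 annotation on GRCm38, 12 of the 89 names had at least 80% of their exonic bases inside the span of another gene, and 10 of these 12 were among the 11 below the limit. The other 2 were Rpl7l1, with 100% of its exonic bases inside the span of Gm26904, and Rpl13a, with 82.8% inside Gm45713 and smaller RNA genes. How the authors assigned reads in overlapping genes is not stated in these sources, and its part in the low counts was not tested. Ribosomal protein genes also have many processed pseudogenes: the median member shared 34.2% of its 50-base words with a transcript of another gene, 21 members shared at least 50%, and 3 shared none. The members Rpl6l and Rps3a2, themselves annotated as processed pseudogenes, shared 76.4% and 90.2%. Levels of single members that share reads with copies are therefore uncertain.

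Libraries held 18531390 to 24244958 counts. On the counts-per-million (CPM) scale, Setd3 was at 122 ± 4.49 CPM in wild-type and 46.3 ± 3.49 CPM in knock-out cells on day 0 and at 29.9 ± 1.01 CPM in knock-out cells on day 4, lower in every knock-out library. The summed level of 6 embryonic stem cell markers was 2842 to 3078 CPM in every day 0 library, and that of 5 definitive endoderm markers on day 4 was 1491 to 1694 CPM in wild-type and 67.64 to 167.9 CPM in knock-out cells. Summed CPM of 12 fibroblast markers was 1353 to 3441 on day 0 in both lines and 109.8 to 208.1 on later days. Some libraries stood apart in the ribosomal protein genes together. Wild-type replicate 1 was above the mean of the other libraries of its group for 75 of 78 genes on day 0 (median difference 0.24), for 76 genes on day 3 (0.16) and for 64 genes on day 4 (0.08), as was wild-type replicate 2 for 73 genes on day 2 (0.12). Among the knock-out libraries, replicate 3 was above for 68 genes on day 2 (0.08) and 69 on day 3 (0.08), and replicate 2 for 69 on day 4 (0.07). Counts of called members that moved by over 1.5 times without a library are given with and without it.

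The 2 autosomal copies of X-linked genes had the largest changes of all 78 genes: Rpl10l and Rpl39l were expressed in stem cells, fell steeply in both lines, and were higher in knock-out than in wild-type cells on days 2 and 3. They were the only 2 of the 78 genes to differ by more than 2-fold in a called comparison. Rpl39l met the minimum on summed counts only through day 0, with 2501 counts in wild-type and 2035 in knock-out cells. Its sums on days 2, 3 and 4 were 117, 12 and 1 in wild-type and 323, 71 and 8 in knock-out cells. A gene this low on later days could be among the 78 only if it was high on day 0. The fall of Rpl39l from day 0 and its rank among the 78 are therefore tied to how the genes were chosen. Rpl10l (ENSMUSG00000060499) is a gene of 1023 exonic bases at chr12:66283379-66284401, minus strand, GRCm38. Rpl39l (ENSMUSG00000039209) is at chr16:10170226-10174911, plus strand. The promoter windows of both copies and of their X-linked parents are shown because the copies moved together while the parents did not follow them. Each runs from 100 bases before to 30 bases after the RefSeq start on GRCm38.p6, on the gene's strand, 5′ to 3′, with matches to 4 motifs in capitals: CTTTCC and TATAAA on the gene's strand, and CCGGAAG, an ETS-type motif, and CCATNTT, a YY1-type motif, on either strand.
Rpl10l, chr12:66284372-66284501, minus strand: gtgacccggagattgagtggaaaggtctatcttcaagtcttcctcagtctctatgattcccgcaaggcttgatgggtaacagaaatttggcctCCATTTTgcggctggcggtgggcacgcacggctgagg
Rpl10, chrX:74270716-74270845, plus strand: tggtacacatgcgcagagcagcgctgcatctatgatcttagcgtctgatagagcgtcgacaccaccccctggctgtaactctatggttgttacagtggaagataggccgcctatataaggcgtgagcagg
Rpl39l, chr16:10170128-10170257, plus strand: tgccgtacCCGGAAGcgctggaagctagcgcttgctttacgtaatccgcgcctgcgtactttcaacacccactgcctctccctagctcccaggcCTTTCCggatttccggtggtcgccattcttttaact
Rpl39, chrX:37085193-37085322, minus strand: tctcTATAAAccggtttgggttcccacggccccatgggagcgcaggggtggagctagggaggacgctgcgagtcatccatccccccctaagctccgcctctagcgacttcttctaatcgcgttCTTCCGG
In these stretches Rpl10l held CCATNTT, Rpl39l held CTTTCC and CCGGAAG, Rpl39 held CCGGAAG, as its reverse complement, and TATAAA, and Rpl10 held none of the 4. Over the full windows of 250 bases before to 50 after the start, 66 windows of 57 members were found. CCGGAAG was in 37.9% of them and in 8.86% of all 32851 windows, CTTTCC in 34.8% and 14.1%, CCATNTT in 33.3% and 16.1%, and TATAAA in 9.09% and 8.32%. The members' windows held a median of 21 CG dinucleotides, against 7 over all windows. A match is a description of the letters only.

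Rpl10l encodes a large subunit protein that replaces Rpl10 in male germ cells. Its level on day 0 was 123, 86.5 and 85.1 CPM in wild-type and 106, 108 and 104 CPM in knock-out libraries, overlapping ranges. On day 2 the wild-type libraries were at 3.07, 5.38 and 4.4 CPM and the knock-out libraries at 12.6, 12 and 13.6 CPM. On day 3 they were at 0.991, 0.639 and 0.402 CPM and 3.56, 3.04 and 2.37 CPM. The knock-out libraries lay above every wild-type library on both days. Only 0, 1 and 0 reads were counted in the wild-type and 8, 4 and 1 in the knock-out libraries on day 4. The fall from day 0 to day 2 was called in both lines, with a log2 fold change of -4.52 ± 0.19 (adjusted p = 1.49e-14) in wild-type and -3.06 ± 0.17 (adjusted p = 1.56e-12) in knock-out cells, and the fall was smaller in knock-out cells, by 1.47 ± 0.25 (adjusted p = 0.000893). Knock-out against wild-type, the log2 fold change was 0.11 ± 0.15 (adjusted p = 0.645) on day 0, 1.58 ± 0.2 (adjusted p = 4.47e-06) on day 2 and 2.14 ± 0.33 (adjusted p = 2.34e-05) on day 3. On day 4 the 13 summed knock-out counts against 1 wild-type count gave a ratio of 13 per library size, with a 95% interval of 1.96 to 554 that covers counting error only. The edgeR test on day 4 gave an adjusted p of 0.038, which was above 0.05 without the filter on low counts, without knock-out replicate 1 or 2 and without wild-type replicate 1 or 3.

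Rpl39l, a short basic protein of the large subunit's exit tunnel, followed the same course at a lower level. It was at 55.4, 31.2 and 25.8 CPM in wild-type and 36, 32 and 30.5 CPM in knock-out libraries on day 0. On day 2 the values were 1.68, 2.42 and 1.87 CPM and 6.13, 4.54 and 5.59 CPM, and on day 3 0.189, 0.16 and 0.223 CPM and 0.974, 1.52 and 0.658 CPM, without overlap on either day. The wild-type libraries held 4, 3 and 5 reads on day 3 and 0, 0 and 1 on day 4, so the later values rest on few counts. The log2 fold change from day 0 to day 2 was -4.23 ± 0.26 (adjusted p = 5.06e-12) in wild-type and -2.6 ± 0.23 (adjusted p = 2.65e-09) in knock-out cells, a difference of 1.64 ± 0.35 (adjusted p = 0.00608). Knock-out against wild-type it was -0.19 ± 0.21 (adjusted p = 0.567) on day 0, 1.45 ± 0.29 (adjusted p = 0.000509) on day 2 and 2.4 ± 0.56 (adjusted p = 0.00151) on day 3. By counts, the knock-out to wild-type ratio was 2.74 (95% interval 2.21 to 3.41) on day 2 and 5.41 (2.91 to 11) on day 3. On day 4 it was 8.02 (1.08 to 356), from 8 counts against 1, and the edgeR test did not pass (adjusted p = 0.141). The day 2 and day 3 calls of both copies, and the differences between the lines in the first step, held under every alternative that was run.

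The parents gave the reference for these copies. Rpl10, whose protein completes the large subunit at the last step of its assembly, was at 1320, 1190 and 1120 CPM in wild-type libraries on day 0 and 1370, 1320 and 1280 CPM on day 4. Rpl39 was at 366, 297 and 274 CPM on day 0 and 306, 290 and 309 CPM on day 4. Per kilobase of exon, Rpl10l amounted to 16.2% ± 2.23 of Rpl10 in wild-type and 19.0% ± 0.383 in knock-out stem cells. On day 2 the figure was 0.722% ± 0.162 and 2.2% ± 0.0733, and on day 3 it was 0.102% ± 0.0376 and 0.518% ± 0.113. Rpl39l amounted to 20.2% ± 5.26 of Rpl39 on day 0 in wild-type and 22.2% ± 0.968 in knock-out cells, and to 1.15% ± 0.152 and 3.57% ± 0.375 on day 2. The parents stayed within a narrow range of CPM while the copies fell. Stem cell transcription factors took the same direction between the lines on day 2: of 6 embryonic stem cell markers 4 were higher in knock-out cells and 0 lower (16.2% and 15.7% of all genes). Among them were Esrrb (log2 fold change 2.43 ± 0.22, adjusted p = 2.58e-07) and Zfp42 (1.73 ± 0.16, adjusted p = 2.75e-07). The summed level of the 6 markers on day 2 was 382.4 to 428.1 CPM in wild-type and 604.8 to 654.7 CPM in knock-out cells. On day 3 the order was reversed, with 784.6 to 853.4 CPM in wild-type and 696.1 to 707.2 CPM in knock-out cells. Of the 6 markers 2 were called higher and 1 lower in knock-out cells on that day (20.8% and 20.5% of all genes). Their part in the copies' levels was not tested. Of the 12 fibroblast markers 0 were called between the lines on day 0 and 1, higher in knock-out cells, on day 2. Of all genes, 10.6% were higher and 10.5% lower on day 0, and 16.2% and 15.7% on day 2. The median log2 fold changes of these markers were 0.23 and 0.53, toward the knock-out. The part of fibroblast RNA in the copies' levels was not tested.

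**Figure D1:**
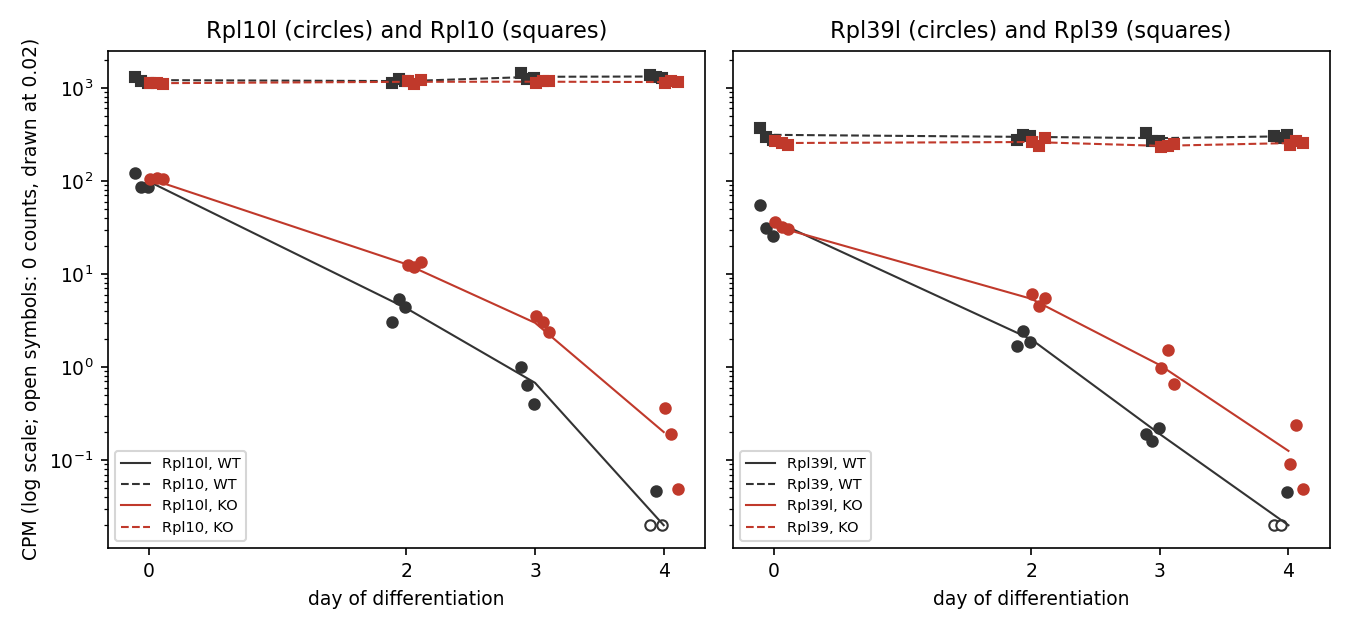
Level of Rpl10l with Rpl10 and of Rpl39l with Rpl39 in CPM on a log axis against day, with a point per library, black for wild-type and red for knock-out, and lines through the group means. Points at 0 counts are open and drawn at 0.02, as are means below it. Both copies fell from day 0 on in both lines and the red circles lie above the black ones on days 2 and 3, while the parents form flat lines.

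The remaining copies moved far less. Rps27l, which differs from Rps27 at few positions and is known as a p53-inducible gene, was at 234, 198 and 187 CPM in wild-type and 195, 188 and 192 CPM in knock-out libraries on day 0. Rps27 itself was at 425, 332 and 326 CPM and 300, 272 and 265 CPM. Per kilobase Rps27l stood at 69.6% to 73.3% of Rps27 in the wild-type group means and at 78.1% to 87.9% in the knock-out group means, and on each day every knock-out library was above every wild-type library. Rps27 was called lower in knock-out cells on days 0, 2 and 3, with log2 fold changes of -0.37 ± 0.1 (adjusted p = 0.00835), -0.27 ± 0.1 (adjusted p = 0.0346) and -0.32 ± 0.1 (adjusted p = 0.0102). The day 0 and day 3 calls were lost without wild-type replicate 1 of that day, and the day 2 call without knock-out replicate 1 or 2 or wild-type replicate 2 or 3. Rps27l was called lower on day 3 only (-0.22 ± 0.07 (adjusted p = 0.0145)), a call lost without replicate 1 of either line. Rpl22l1, the copy of Rpl22, was at 20% to 27.4% of Rpl22 per kilobase over the 8 groups. It rose in wild-type cells from day 2 (79.3, 87.2 and 83.1 CPM) to day 3 (119, 106 and 94.4 CPM), by 0.36 ± 0.1 (adjusted p = 0.0055) on the log2 scale. Rpl7l1, a nucleolar relative of Rpl7 that acts in ribosome assembly, was at 360, 328 and 318 CPM in wild-type day 0 and 240, 266 and 248 CPM in wild-type day 2 libraries, and fell by 0.42 ± 0.06 (adjusted p = 5.64e-07) on the log2 scale. It was at 10.3% to 13.7% of Rpl7 per kilobase.

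Levels differed widely between the members and little between the groups. Per kilobase of exon, Rplp1 of the stalk was highest with 1870 CPM per kb averaged over all libraries. The length joins all annotated exons of a gene, 499 bases for Rplp1 and 6270 for Rps15a. The order of the genes therefore also depends on the annotation. Rpl4, which lines the exit tunnel, had 1450 CPM per kb and Rpl8, at the peptidyl transferase centre, had 1430. The lowest were Rpl29 with 4.83, Rpl39l with 11.9 and Rpl10l with 27.5 CPM per kb. The median member differed 1.25-fold between its highest and lowest group mean, and its median coefficient of variation within groups was 4.9%. Apart from Rpl39l and Rpl10l, which had few counts on later days (30.5% and 24.4%), Rpl17 (47.5%), Rpl15 (25.6%), Rps9 (24.6%) and Rpl7a (18.3%) varied most between replicates. Rpl17 ranged from 64.1 to 189 CPM within the knock-out day 4 group alone. The source of this spread was not tested.

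**Figure D2:**
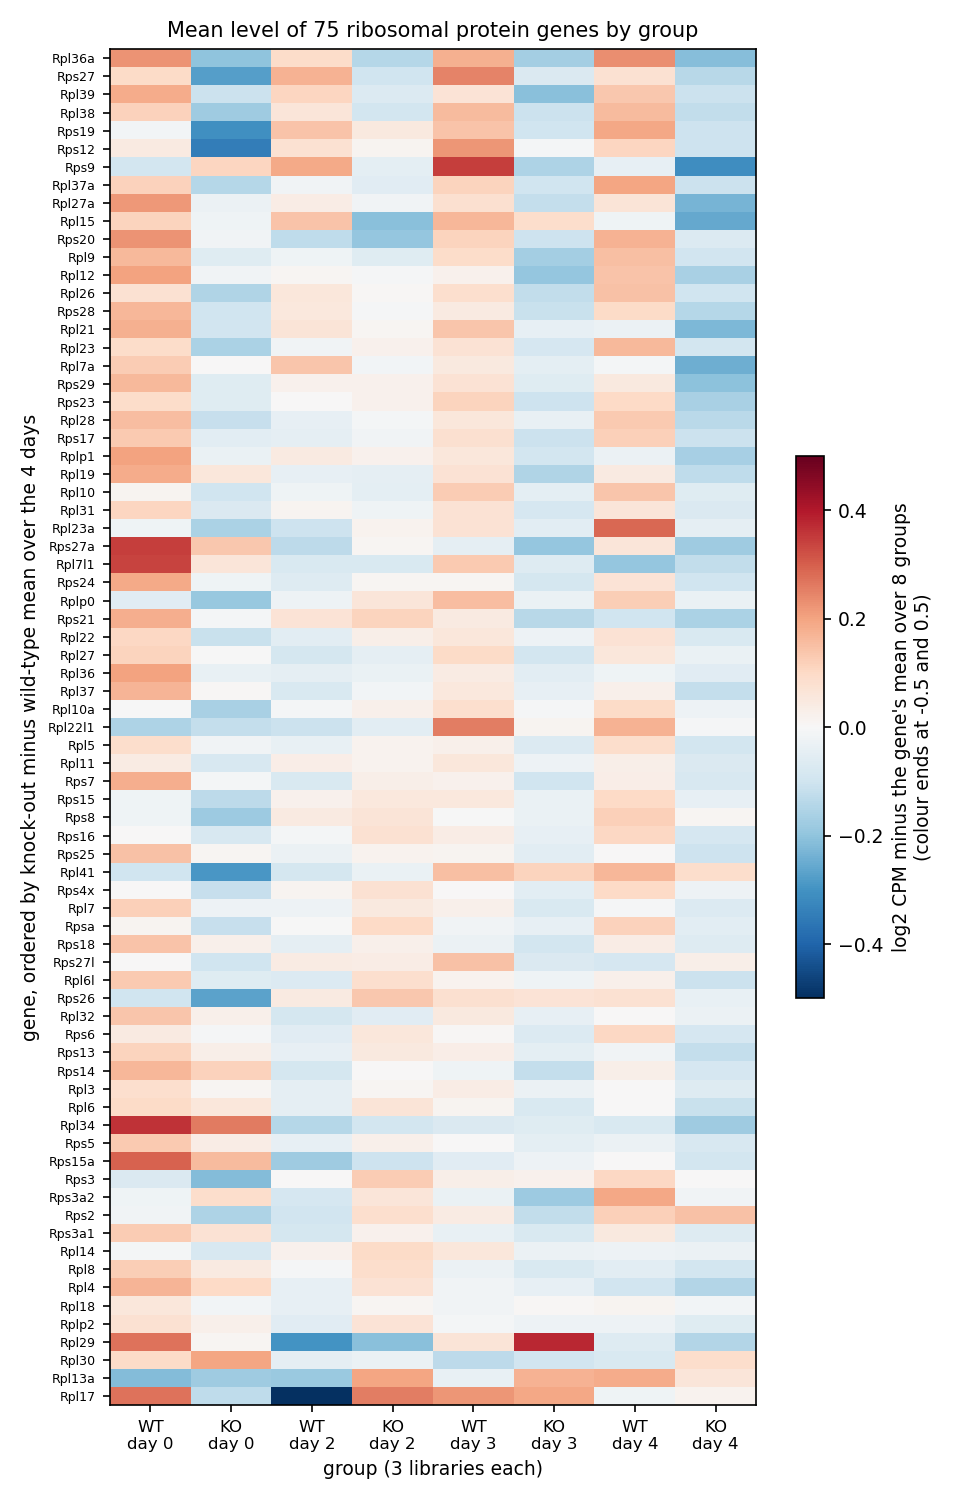
Heat map of ribosomal protein genes (rows, Rpl10l, Rpl39l and 1 further member left out) by group (columns, 3 libraries each). Colour gives the log2 group mean of CPM minus the gene's mean over the 8 groups, red above and blue below, and rows run from the genes lowest in knock-out relative to wild-type at the top, led by Rpl36a, to the highest at the bottom.

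Taken as a share of all counts, the 78 genes made up 6.53% ± 0.646 of the wild-type libraries on day 0, with 7.28% in replicate 1 and 6.23% and 6.09% in the others. The share was 6.15% ± 0.371 on day 2, 6.22% ± 0.451 on day 3 and 6.31% ± 0.178 on day 4. In knock-out cells it was 5.8% ± 0.107 on day 0, 6.0% ± 0.183 on day 2, 5.61% ± 0.169 on day 3 and 5.63% ± 0.19 on day 4. Every knock-out library lay below every wild-type library on days 0, 3 and 4, with differences of -0.73, -0.61 and -0.68 percentage points, and an exact two-sided permutation test gave p = 0.1 each time, the smallest that 3 against 3 allows. On day 2 the groups overlapped (-0.15 points, exact p = 0.7). Among the steps in time, only the knock-out step from day 2 to day 3 had no overlap (-0.39 points, exact p = 0.1). The Benjamini-Hochberg adjusted permutation p over the 10 comparisons was 0.25 for these 4. Without wild-type replicate 1 the difference was -0.36 points on day 0 and -0.36 points on day 3, and on day 4 it was -0.43 points when the 10 most abundant genes of each library were left out of the total.

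**Figure D3:**
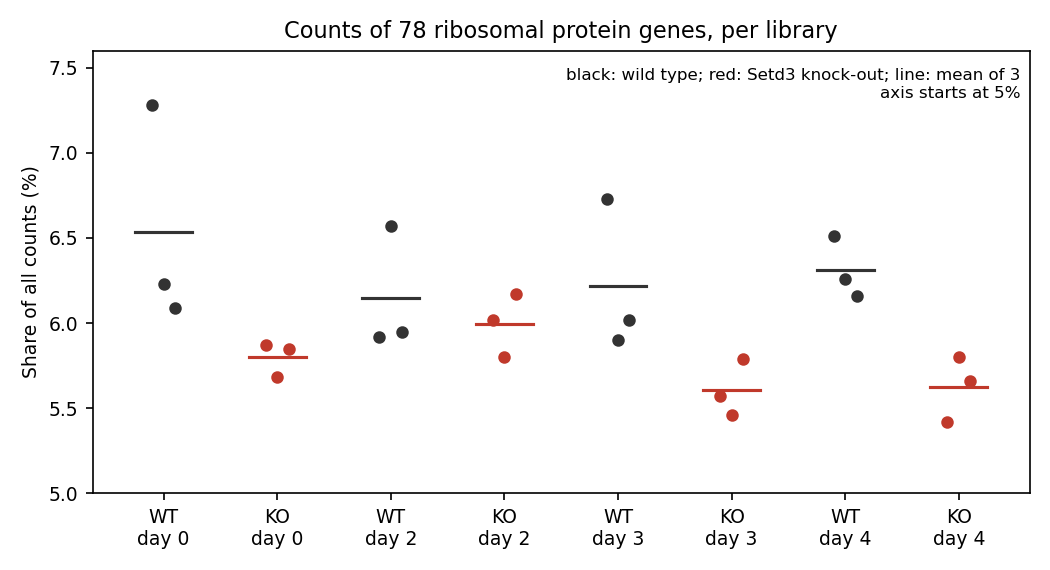
Share of each library's counts, in percent, that fell on the 78 ribosomal protein genes, by group, with a point per library and a line at the mean of 3, black for wild-type and red for knock-out. The knock-out points lie below the wild-type points on days 0, 3 and 4 and overlap them on day 2, and the highest point is wild-type day 0 replicate 1 at 7.28%. The axis starts at 5%.

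Gene by gene, ribosomal protein genes were slightly lower in knock-out than in wild-type cells on days 0, 3 and 4 and nearly level on day 2. On day 0, 24 of the 78 were called lower and 0 higher, while 10.5% of all 17144 tested genes were called lower and 10.6% higher. Their median log2 fold change was -0.14, against 0.01 over all tested genes. On day 2, 2 were lower and 4 higher, where 15.7% of all genes were lower and 16.2% higher, with a median of 0.05. Scaling by library totals instead gave 5 lower and 4 higher on day 2, with a median of -0.03, and leaving out wild-type replicate 2 gave 0 lower and 8 higher, with a median of 0.10. On day 3, 22 were lower and 4 higher (20.5% and 20.8% of all genes), with a median of -0.10. On day 4, 31 were lower and 2 higher (27.6% and 26.3% of all genes), with a median of -0.13. The share of members called lower was thus 30.8%, 2.56%, 28.2% and 39.7% on the 4 days. On day 4, 17 of 39 large and 12 of 29 small subunit genes were called lower, with medians of -0.13 and -0.14.

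The day 0, 3 and 4 counts leaned on single libraries. Without wild-type day 0 replicate 1, 9 members were lower and 1 higher on day 0 and the median was -0.07, and without knock-out day 0 replicate 2, 12 were lower and 1 higher. On day 3, 5 were lower and 4 higher without wild-type replicate 1 (median -0.04). On day 4, 15 were lower and 0 higher without wild-type replicate 1, and 18 lower and 1 higher without knock-out replicate 1, with a median of -0.11 in both. Transcript length moved with the genotype as well. Tested genes outside the set with up to 1 kb of exon had median log2 fold changes of -0.10, 0.00, -0.09 and -0.07 on days 0, 2, 3 and 4. Those of 1 to 2 kb had -0.07, -0.05, -0.09 and -0.08, and those of 2 to 4 kb had -0.02, -0.04, -0.04 and -0.05. Those over 4 kb had 0.05, 0.01, 0.03 and 0.03. The middle quartiles of the members spanned 1269 to 2690 exonic bases. In wild-type day 0 replicate 1 the class up to 1 kb was, on the log2 scale, 0.09 above and the class over 4 kb at -0.06 against the other libraries of the group. The part of length in the members' values was not tested.

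**Figure D4:**
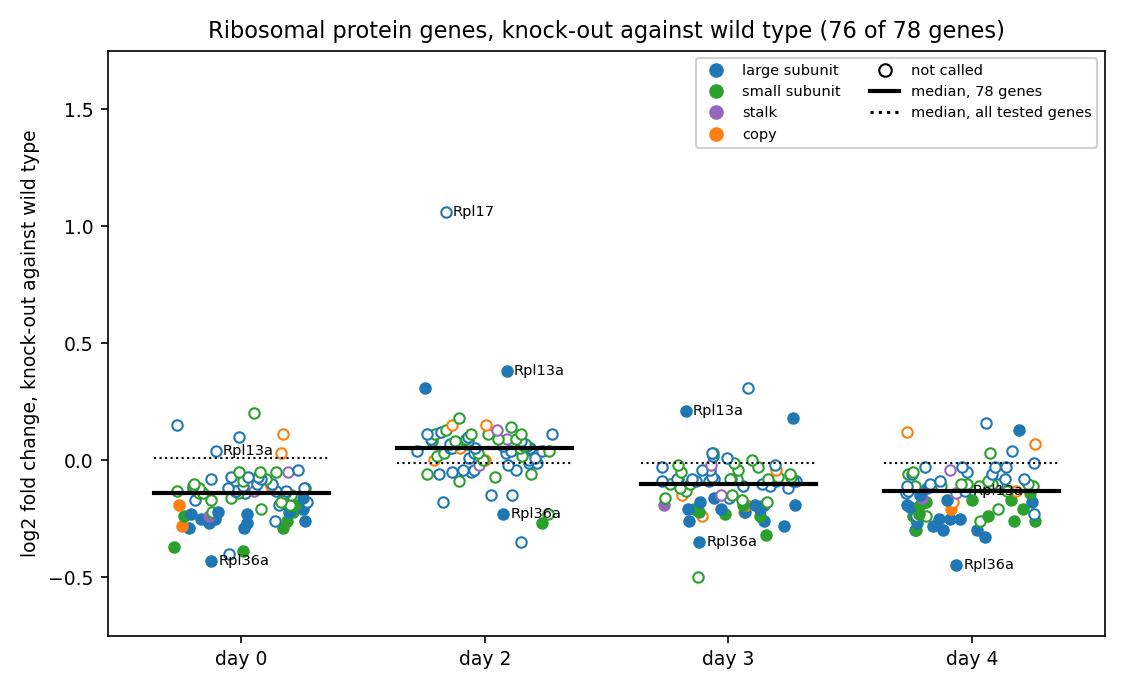
Log2 fold change of knock-out against wild-type on each day for 76 ribosomal protein genes (Rpl10l and Rpl39l left out), coloured by class, filled where called and open where not. The thick line is the median of the 78 genes, at -0.14, 0.05, -0.10 and -0.13, and the dotted line the median of all tested genes. Rpl36a is low on every day, and the point near 1 on day 2 is Rpl17, which varied strongly between replicates and was not called.

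Of the single genes, Rpl36a was the only one called lower on all 4 days. It encodes a zinc-binding protein of the large subunit near the E site, and lies on the X chromosome. Its level was 432, 361 and 368 CPM in wild-type and 282, 282 and 301 CPM in knock-out libraries on day 0, and 419, 388 and 361 CPM against 270, 298 and 289 CPM on day 4. On all 4 days no library of one line reached the range of the other. It had a log2 fold change of -0.43 ± 0.08 on day 0 (adjusted p = 0.00023) and -0.23 ± 0.08 on day 2 (adjusted p = 0.0198). On day 3 the value was -0.35 ± 0.08 (adjusted p = 0.000618) and on day 4 it was -0.45 ± 0.08 (adjusted p = 2.35e-05). The day 2 call was lost without wild-type replicate 2 and without knock-out replicate 1 or 2. Of the other X-linked members, Rpl39 was called lower on days 0, 3 and 4 and Rpl10 on days 3 and 4. The Rpl39 calls were lost in 5, 3 and 5 of 13 alternatives on days 0, 3 and 4, each time including those without replicate 1 of the wild-type line, and the Rpl10 call of day 3 without replicate 1 of either line. On days 3 and 4 Rpl39 had log2 fold changes of -0.28 ± 0.09 (adjusted p = 0.0207) and -0.25 ± 0.09 (adjusted p = 0.0288) and Rpl10 of -0.18 ± 0.06 (adjusted p = 0.012) and -0.2 ± 0.06 (adjusted p = 0.00379), while Rps4x was not called on any day. The 4 X-linked members had medians of -0.21, -0.10, -0.23 and -0.22 on the 4 days, and the 620 other tested genes of the X chromosome had -0.06, -0.11, -0.11 and -0.03. Such medians were not particular to the X chromosome. The 7 members on chromosome 11 had -0.21, 0.04, -0.19 and -0.25, and the 13 on chromosome 7 had -0.10, 0.07, -0.08 and -0.13.

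A further 13 members were called lower on 3 of the 4 days: Rpl12, Rpl21, Rpl23, Rpl26, Rpl27a, Rpl37a, Rpl38, Rpl39, Rpl9, Rps12, Rps19, Rps20 and Rps27. Rps12, a small subunit protein of the beak, was at 819, 680 and 709 CPM in wild-type and 560, 538 and 586 CPM in knock-out libraries on day 0, a log2 fold change of -0.39 ± 0.06 (adjusted p = 6.23e-05). Rps19, needed for maturation of the small subunit and mutated in Diamond-Blackfan anaemia, was at 834, 803 and 828 CPM against 646, 690 and 667 CPM on day 4, a log2 fold change of -0.3 ± 0.07 (adjusted p = 0.000415). Rpl38, known for its part in the translation of Hox messenger RNAs, was at 234, 220 and 224 CPM against 181, 193 and 184 CPM, a change of -0.28 ± 0.08 (adjusted p = 0.00359). In each of these the 2 groups did not overlap, as for 41 members on day 4 with the knock-out below (31.4% of all tested genes). At the other end, 39 members were never called lower. The shares of all tested genes called lower on 3 days or on none were not counted, so these counts describe the members only. The stalk genes and Rpsa, the laminin receptor homologue of the small subunit, were called on few days. Rplp0, the stalk base, was at 1570, 1380 and 1470 CPM in wild-type and 1260, 1280 and 1340 CPM in knock-out libraries on day 3, a log2 fold change of -0.19 ± 0.05 (adjusted p = 0.00697) that was lost without wild-type replicate 1, as was its call on day 4 (-0.16 ± 0.05 (adjusted p = 0.012)). Rplp1 was called on day 0 alone (-0.24 ± 0.08 (adjusted p = 0.0448), with overlapping groups), Rpsa on day 4 alone (-0.17 ± 0.06 (adjusted p = 0.022)) and Rplp2 on no day. The Rplp1 call was lost in 6 and the Rpsa call in 5 of 13 alternatives, in both cases including those without wild-type replicate 1 or 2.

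Genes higher in knock-out cells were few. Beside Rpl10l and Rpl39l they included Rpl13a, on days 2 and 3. Rpl13a, which also acts outside the ribosome as a silencer of translation in inflammation, was at 87.5, 98.1 and 93.2 CPM in wild-type and 120, 120 and 123 CPM in knock-out libraries on day 2, without overlap (0.38 ± 0.06 (adjusted p = 3.73e-05)), and 0.21 ± 0.06 (adjusted p = 0.00712) on day 3. On day 4 it was at 122, 121 and 117 CPM against 98.3, 113 and 118 CPM and was not called. Its counts may include reads of Gm45713, in whose span it lies.

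Along the course of differentiation, wild-type and knock-out cells took different first steps. The day 0 libraries are shared between these steps and the day 0 comparison above. From day 0 to day 2, 33 members fell and 2 rose in wild-type cells, where 31.8% of all tested genes fell and 32.0% rose, and the median log2 fold change was -0.13. In knock-out cells 6 fell and 16 rose (30.6% and 29.5% of all genes), with a median of 0.05. Among the genes that fell in both lines were Rpl34, from 115, 108 and 99.3 CPM to 77.8, 76 and 72.7 CPM in wild-type libraries (-0.51 ± 0.07 (adjusted p = 8.05e-07)) and by -0.35 ± 0.07 (adjusted p = 0.000115) in knock-out libraries, and Rps15a (log2 fold changes of -0.47 and -0.26). Rps20 fell in both (-0.35 and -0.17), a call lost in knock-out cells without day 0 replicate 1 or 3 or day 2 replicate 1 or 2. In knock-out cells Rps26 rose from 639, 574 and 650 CPM to 795, 784 and 883 CPM (0.4 ± 0.07 (adjusted p = 1.25e-05)), Rpl13a by 0.38 ± 0.06 (adjusted p = 8.6e-06) and Rps12 by 0.36 ± 0.06 (adjusted p = 2.24e-05). The difference between the 2 steps was itself tested: 11 members were called with the knock-out step higher and 0 with it lower (4.27% and 3.07% of all genes), and the median difference was 0.19. Beside Rpl10l and Rpl39l they were Rpl13a, Rpl22, Rpl23, Rpl28, Rpl6l, Rpl7l1, Rps12, Rps24 and Rps7, with differences of 0.27 to 0.34. The count fell to 4 without knock-out day 0 replicate 2, to 5 without knock-out day 2 replicate 3, to 6 without wild-type day 2 replicate 1, and to 7 without wild-type day 0 replicate 1 or wild-type day 2 replicate 3. Without wild-type day 2 replicate 1, 19 members fell and 2 rose in the wild-type step.

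With all libraries in 1 fit, few of these genes were called in the Activin A phase. From day 2 to day 3, 7 members rose and 2 fell in wild-type cells (21.4% and 21.1% of all genes, median 0.07), and 3 rose and 2 fell when libraries were scaled by their totals. The 2 that fell were Rpl10l (-2.65 ± 0.32 (adjusted p = 8.94e-07)) and Rpl39l (-3.33 ± 0.51 (adjusted p = 1.63e-05)), and those that rose included Rpl22l1 and Rps20, the latter from 703, 771 and 681 CPM to 912, 833 and 797 CPM (0.24 ± 0.07 (adjusted p = 0.00579)). In knock-out cells 7 fell and 0 rose (14.4% and 14.7% of all genes, median -0.09), again with Rpl10l and Rpl39l at the head (-2.09 and -2.37) and then Rps21 (-0.24), Rps3a2 (-0.24) and Rpl12 (-0.19). The calls of Rps21 and Rps3a2 were each lost without 4 of the 6 libraries in turn. A fit on the knock-out day 2 and day 3 libraries alone called 36 lower and 1 higher. The step differed between the lines in 1 member, Rplp0, with the knock-out step lower (-0.27 ± 0.08 (adjusted p = 0.0197); 4.33% of all genes were called lower and 6.61% higher), a call lost without knock-out day 2 replicate 1 or 3, knock-out day 3 replicate 1, or wild-type replicate 1 of day 2 or day 3. Without wild-type day 2 replicate 2, 6 members were called lower in this difference, with a median of -0.19. From day 3 to day 4, 2 members rose and 4 fell in wild-type cells (22.4% and 23.1% of all genes, median 0.00), or 4 and 3 when scaled by library totals, among them Rpl13a (0.22 ± 0.06 (adjusted p = 0.00352)) upward and Rpl7l1 (-0.32 ± 0.06 (adjusted p = 4.19e-05)) downward. Only Rpl10l and Rpl39l fell in knock-out cells and 0 rose (5.83% and 5.76% of all genes). The counts in this phase moved with single libraries: without wild-type day 3 replicate 1, 3 members rose from day 2 to day 3, and 8 rose and 2 fell from day 3 to day 4. In knock-out cells, 3 fell from day 2 to day 3 without day 2 replicate 1 or day 3 replicate 1, and 4 without day 2 replicate 3. The day 3 to day 4 step differed between the lines in 3 members (12.6% of all genes were called higher and 11.2% lower), with Rps27l (0.34 ± 0.1 (adjusted p = 0.0154)) and Rpl7l1 (0.26 ± 0.08 (adjusted p = 0.0166)) higher and Rpl13a (-0.34 ± 0.09 (adjusted p = 0.00477)) lower in the knock-out step. The Rps27l call was lost without wild-type day 3 replicate 1, and the Rpl7l1 call without knock-out day 4 replicate 2 or wild-type day 4 replicate 3.

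Genes of the machinery that builds ribosomes fell late in wild-type cells and were higher in knock-out cells on days 2 and 4. On day 2, 28 of 65 assembly factors and 7 of 19 polymerase I genes were higher and 0 of either lower. Of all genes, 16.2% were higher and 15.7% lower on that day. The day 3 counts were 14 higher and 8 lower for assembly factors. Those for polymerase I genes were 3 and 5, where 20.8% of all genes were higher and 20.5% lower. In the last wild-type step, from day 3 to day 4, 58 of 65 tested ribosome assembly factors fell and 0 rose (23.1% and 22.4% of all genes), with a median log2 fold change of -0.43, while the ribosomal protein genes had a median of 0.00. Of 19 genes of RNA polymerase I and its factors, which transcribe the ribosomal RNA, 16 fell and 0 rose (median -0.35). In the knock-out step, where 5.83% of all genes fell, 15 assembly factors and 1 polymerase I gene fell, with medians of -0.11 and -0.10. The step itself was called higher in knock-out cells for 47 assembly factors and lower for 1 (12.6% and 11.2% of all genes), with a median difference of 0.29. On day 4, of the assembly factors, 51 were called higher and 2 lower in knock-out cells (26.3% and 27.6% of all genes, median 0.30), and of the polymerase I genes 12 were higher and 2 lower (median 0.20), while 31 ribosomal protein genes were called lower. Utp14a, a helicase cofactor of small subunit assembly, fell by 0.80 ± 0.06 on the log2 scale in the wild-type step (adjusted p = 3.5e-10) and was higher in knock-out cells on day 4 (log2 fold change 0.88 ± 0.06, adjusted p = 3.96e-11). Nol6, another small subunit assembly factor, fell by 0.73 ± 0.09 (adjusted p = 5.47e-07) and was higher by 0.74 ± 0.09 (adjusted p = 2.22e-07). Tcof1, the treacle protein that links polymerase I to pre-ribosomal RNA processing, fell by 0.71 ± 0.10 (adjusted p = 5.55e-06) and was higher by 0.73 ± 0.10 (adjusted p = 2.39e-06). Nop53 and Nop10, which act in the same pathway, were the 2 factors called lower on day 4, at -0.26 ± 0.05 (adjusted p = 2.89e-05) and -0.17 ± 0.06 (adjusted p = 0.0147).

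Stem cell markers again lay apart on that day: their summed level was 199.4 to 315.2 CPM in wild-type and 711.2 to 755.1 CPM in knock-out libraries. Of the 6, 4 were called higher and 2, Klf4 and Tfcp2l1, lower in knock-out cells (26.3% and 27.6% of all genes). Pou5f1 was among the higher ones (log2 fold change 1.76 ± 0.13, adjusted p = 2.76e-09). Their part in the levels of assembly factors was not tested. From day 0 to day 2, assembly factors fell in both lines, 43 of 65 in wild-type and 29 in knock-out cells, against 3 and 7 that rose (31.8% and 30.6% of all genes fell, 32.0% and 29.5% rose). From day 2 to day 3, 33 rose and 2 fell in wild-type cells (21.4% and 21.1% of all genes), and 9 rose and 3 fell in knock-out cells (14.7% and 14.4%). Mitochondrial ribosomal protein genes, which serve the separate ribosomes of mitochondria, rose in wild-type cells from day 2 to day 3 (32 of 72, and 1 fell, against 21.4% and 21.1% of all genes) and fell from day 3 to day 4 (38, and 4 rose, against 23.1% and 22.4%). Between the lines on day 4, 17 were higher and 16 lower (median -0.02), near the shares over all genes. On day 3, 6 were higher and 21 lower in knock-out cells (20.8% and 20.5% of all genes, median -0.12). The day 0 counts were 1 higher and 10 lower (10.6% and 10.5%), and those of day 2 were 14 and 9 (16.2% and 15.7%). In the wild-type step from day 0 to day 2, 38 of these mitochondrial genes fell and 9 rose (31.8% and 32.0%, median -0.18). Elongation factors and other messenger RNAs with a 5′ pyrimidine tract had 7 higher and 0 lower of 22 in knock-out cells on day 2 (16.2% and 15.7% of all genes, median 0.09). On day 3, 0 were higher and 9 lower (20.8% and 20.5%, median -0.09), and on day 4, 5 were higher and 5 lower (26.3% and 27.6%).

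**Figure D5:**
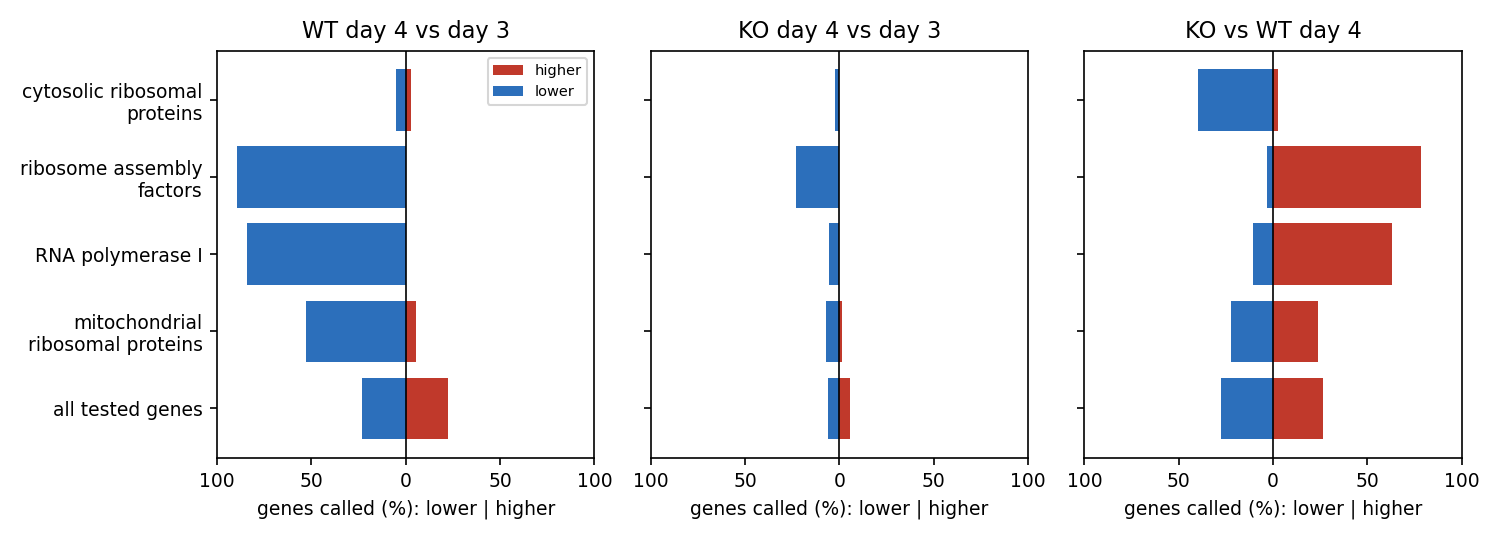
Percent of each gene list called lower (blue, to the left) and higher (red, to the right) in the wild-type step from day 3 to day 4, the same step in knock-out cells, and knock-out against wild-type on day 4. Assembly factors and polymerase I genes extend far left in the wild-type step and far right between the lines on day 4, where cytosolic ribosomal proteins extend left (39.7% called lower). The bottom bar gives all tested genes.

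Among regulators known to act on ribosomal protein genes, the MYC family and mTORC1 list had 28 tested genes. Mycn was higher in knock-out cells on day 3 (log2 fold change 1.18 ± 0.07, adjusted p = 6.09e-12) and on day 4 (1.21 ± 0.07, adjusted p = 1.65e-12), and Mycl was lower (-1.18 ± 0.14, adjusted p = 1.2e-06, and -0.92 ± 0.14, adjusted p = 9.17e-06). Myc was lower on day 0 (-0.45 ± 0.10, adjusted p = 0.00286), and fell from day 0 to day 2 and rose from day 2 to day 3 in wild-type cells (-2.29 ± 0.12 and 2.54 ± 0.12). In all, 6, 13, 10 and 11 of the 28 were higher and 3, 0, 4 and 5 lower in knock-out cells on days 0, 2, 3 and 4, where 10.6%, 16.2%, 20.8% and 26.3% of all genes were higher and 10.5%, 15.7%, 20.5% and 27.6% lower. Genes of the p53 response, which free ribosomal proteins can trigger through Mdm2, had 11 of 18 higher and 2 lower on day 4 (26.3% and 27.6% of all genes, median 0.19), with Eda2r (0.86 ± 0.08, adjusted p = 1.82e-09) and Gtse1 (0.66 ± 0.08, adjusted p = 1.42e-07) the highest, and on day 0 1 was higher and 1 lower.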

How the data were processed

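PolyA+ libraries were made from 24 RNA samples, grouped by the line and day in their titles. The values the authors deposited are raw read counts for each gene, with Ensembl identifiers and names. Trimmomatic, HISAT2 and the build GRCm38.p6 are named in the submitters' processing notes. Versions, the counting tool, its annotation, strand and the handling of multimapping reads are not stated there.

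The members and gene lists were chosen with earlier results of these data known. All 78 members passed edgeR's filter on low counts. The 17144 genes that passed were tested with edgeR 4.0.16 (TMM scaling, robust quasi-likelihood fit, common biological coefficient of variation 0.0906) in 1 model over 24 libraries and 8 groups, without a replicate block. P-values were Benjamini-Hochberg adjusted over all tested genes, with a threshold of 0.05, in each of 13 comparisons: 4 between the lines, 3 steps in time in each line, and 3 differences between the steps. The standard error is the log2 fold change divided by the square root of F. CPM used TMM-scaled library sizes, and shares were compared by exact permutation tests. A fit of the day 0 groups alone was tested on simulated counts with the same spread for every gene and changes of 1.5-, 2- and 4-fold. It recovered 79.1%, 88.1% and 95.5% of these changes, with 6 false calls among 15659 genes. Smaller changes and the model over 24 libraries were not tested in this way. The alternatives were DESeq2 1.42.0 size factors and its Wald test, other scalings and filters, a replicate block and fits without each library. Intervals are exact, at 95%, and cover counting error only, since reads without molecular identifiers are not independent molecules. Coordinates, spans and lengths are from GENCODE M21 on GRCm38 and promoter windows from RefSeq on GRCm38.p6, where 57 of 78 members matched. Lengths join all annotated exons of a gene and are the same in every group. Levels per kilobase and the percentages of copies against parents thus depend on the annotation.

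Values in every library were to be given for paralogue pairs, the stalk genes and Rpsa, the 3 highest and 3 lowest called members of each comparison, and the members highest and lowest per kilobase. Some of these are given only by counts or fold changes. Of related lists, examples were taken from the 2 highest and 2 lowest called genes. Rpl38, Rps15a and 4 members that varied strongly between replicates (Rpl17, Rps9, Rpl15 and Rpl7a) were chosen after their values were seen. Some members counted here are not reported by name.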

Additional observations from a re-analysis of the deposited data

Results flagged for a closer look

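These genes changed differently in the 2 lines over the same step, by edgeR's test of the difference itself, adjusted over all tested genes. Values are the knock-out step minus the wild-type step on the log2 scale. From day 0 to day 2 the step was higher in knock-out cells for Rpl10l (1.47) and Rpl39l (1.64), which fell less in knock-out cells. It was also higher for Rpl13a (0.34), Rpl22 (0.30), Rpl23 (0.29), Rpl28 (0.30), Rpl6l (0.34), Rpl7l1 (0.27), Rps12 (0.33), Rps24 (0.30) and Rps7 (0.30). From day 2 to day 3 it was lower in knock-out cells for Rplp0 (-0.27), the base of the stalk. From day 3 to day 4 it was lower for Rpl13a (-0.34) and higher for Rpl7l1 (0.26) and Rps27l (0.34). The wild-type day 0 replicate 1, whose ribosomal protein genes stood above the rest of its group, is part of the first of these steps, and without it 7 of the 78 genes were called there.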

How the results depend on the processing

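Under DESeq2 size factors, library totals, TMM without the ribosomal protein genes, no filter on low counts, a fit on the compared groups alone, DESeq2's Wald test, the replicate number as a block and leaving out each library in turn, 55 of 104 calls on named members were kept throughout. Of the single checks 1243 kept the call, 173 lost it and 0 reversed it. Of the scalings, library totals gave the median of all tested genes farthest from 0, at -0.085 on the log2 scale between the lines on day 2, against -0.008. Library totals called 39 members between the lines on day 0 and 5 in the wild-type step from day 2 to day 3. Fits on the compared groups alone called 7 members between the lines on day 0, 10 on day 2, 37 in the knock-out step to day 3 and 5 in that to day 4, with fewer libraries to estimate the spread. Leaving out each library in turn, the number of members called was 10 to 33 for knock-out against wild-type on day 0, 4 to 8 for knock-out against wild-type on day 2, 9 to 30 for knock-out against wild-type on day 3, 15 to 30 for knock-out against wild-type on day 4, 21 to 40 for the wild-type step to day 2, 5 to 12 for the wild-type step to day 3, 4 to 10 for the wild-type step to day 4, 15 to 23 for the knock-out step to day 2, 3 to 5 for the knock-out step to day 3, 2 for the knock-out step to day 4, 4 to 16 for the difference of the first steps, 0 to 6 for the difference of the middle steps and 2 to 3 for the difference of the last steps. The difference in the share of counts, in percentage points, was -0.95 to -0.36 for knock-out against wild-type on day 0, -0.26 to 0.06 for knock-out against wild-type on day 2, -0.77 to -0.36 for knock-out against wild-type on day 3, -0.77 to -0.58 for knock-out against wild-type on day 4, -0.61 to -0.02 for the wild-type step to day 2, -0.18 to 0.29 for the wild-type step to day 3, -0.07 to 0.35 for the wild-type step to day 4, 0.11 to 0.29 for the knock-out step to day 2, -0.49 to -0.3 for the knock-out step to day 3 and -0.06 to 0.12 for the knock-out step to day 4. Without the 10 most abundant genes the difference in share for the wild-type step to day 3 was -0.13 points, against 0.07. The cause of these moves was not tested.

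Replicate numbers did not mark paired samples in the labels, and in no comparison did all 3 same-numbered pairs correlate above 0.1 in their deviations from the group means (correlations of -0.204 to 0.261 over 30 pairs, in 17 of which the same number gave the best match). With the number as a block, the members called were 23 for knock-out against wild-type on day 0, 6 for knock-out against wild-type on day 2, 25 for knock-out against wild-type on day 3, 32 for knock-out against wild-type on day 4, 34 for the wild-type step to day 2, 9 for the wild-type step to day 3, 7 for the wild-type step to day 4, 22 for the knock-out step to day 2, 6 for the knock-out step to day 3, 2 for the knock-out step to day 4, 11 for the difference of the first steps, 1 for the difference of the middle steps and 3 for the difference of the last steps. The block moved no count of calls by over 1.5 times.

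Counting error limits Rpl10l and Rpl39l on days 3 and 4, as the intervals given beside them show. Reads from the stretches that a member shares with its copies cannot be assigned at any depth.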
